A study of Mus musculus with 46 samples.

Results

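Chromatin regions of AgRP neurons that were more open in fasted than in fed mice, and about as open after leptin as in fasting, are described here. They numbered 11127 of the 90196 peaks in the ATAC-seq table, which was 12.3% of all peaks and 14.9% of the 74904 peaks with a mean of at least 1 log2 CPM (CPM, counts scaled to a common library size) over the 6 libraries. A peak was taken when that mean was at least 1, when the mean of the fasted libraries exceeded that of the fed libraries by at least 1 on the log2 scale, when the lower fasted library lay above the higher fed library, and when the leptin and fasted means differed by less than 0.5. The members were thus chosen by their measured fasted and fed difference and leptin and fasted difference, which are given below as descriptions without a test. Of the 14704 peaks that met the fasting conditions, these were 75.7%. Another 1334 were lower in leptin than in fasted mice by at least 0.5 (fasted-opened, leptin-lowered) and 2243 were higher by at least 0.5 (fasted-opened, leptin-raised), and both sets serve as comparisons.

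AgRP neurons were tagged in NuTRAP AgRP mice, in which Cre expressed from the Agrp locus (AgRP-IRES-Cre) switches on a GFP-tagged ribosomal subunit for translating ribosome affinity purification (TRAP) and an mCherry-tagged nuclear envelope protein, and nuclei were sorted by their tag. All AgRP groups were male C57BL/6J mice of 6 to 11 weeks, with the arcuate nuclei (ARCs) of 4 mice pooled for a sample: fed ad libitum and injected with vehicle, fasted overnight for 18 to 20 h and injected with vehicle, or fasted for the same time and injected with leptin at 5 mg/kg, all taken 3 h after the injection. ATAC-seq had 2 libraries for each of the 3 states and TRAP RNA-seq had 3 fed, 4 fasted and 4 leptin libraries. Further data came from TRAP RNA of POMC-IRES-Cre NuTRAP mice (2 libraries a state), from AgRP-positive and AgRP-negative nuclei of untreated fed mice, sorted and profiled by ATAC-seq (2 libraries each), from CTCF CUT&RUN in AgRP nuclei and in cerebellum, and from IRF3 CUT&RUN in AgRP neurons of mice carrying IRF3-2D, a constitutively active form of the transcription factor IRF3. By the study's methods the 2 ATAC libraries of a state were biological replicates from separate pools. The p-values rest on the spread between libraries.

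AgRP neurons of the arcuate nucleus drive feeding. They release the melanocortin antagonist AgRP together with neuropeptide Y and GABA, are activated by fasting and are restrained by leptin, the hormone of fat tissue that signals through STAT3. DNA becomes accessible to the ATAC-seq transposase where nucleosomes are displaced, most often at promoters and at distal enhancers bound by transcription factors. AP-1 factors, dimers of Fos and Jun family proteins, bind the palindrome TGANTCA (N is any base), are induced by neuronal activity and are known to take part in opening activity-dependent enhancers in neurons.

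The letters TGANTCA stood in the central 300 bases of 8343 of the 11127 regions, and the sequences below show it where it carried the description. They were read from RefSeq GRCm38.p6 (mm10 coordinates, 1-based, plus strand), each is named by its nearest gene, and capitals mark TGANTCA. The first is the middle of one of the regions with the greatest opening and the next is from another such region. The third and the fourth come from the members with the highest mean level, and the others lie near genes whose RNA is described below.
Tmprss11f chr5:86638214-86638313: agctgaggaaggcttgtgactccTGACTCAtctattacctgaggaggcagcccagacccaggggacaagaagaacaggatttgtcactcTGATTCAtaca
BC055402 chr1:57243967-57244066: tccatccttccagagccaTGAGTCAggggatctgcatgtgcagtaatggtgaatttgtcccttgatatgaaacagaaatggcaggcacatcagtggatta
Srxn1 chr2:152102108-152102207: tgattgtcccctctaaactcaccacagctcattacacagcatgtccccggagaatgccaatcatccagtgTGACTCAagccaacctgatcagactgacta
Ubl3 chr5:148523354-148523453: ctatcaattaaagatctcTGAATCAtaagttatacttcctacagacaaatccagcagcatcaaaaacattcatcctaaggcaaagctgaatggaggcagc
Agrp chr8:105639945-105640044: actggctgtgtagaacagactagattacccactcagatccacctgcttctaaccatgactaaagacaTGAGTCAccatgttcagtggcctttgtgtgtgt
Npy chr6:49656586-49656735: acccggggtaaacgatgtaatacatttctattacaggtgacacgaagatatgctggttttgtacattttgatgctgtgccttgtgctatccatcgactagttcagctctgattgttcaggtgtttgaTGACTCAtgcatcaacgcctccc
Fos chr12:85519671-85519770: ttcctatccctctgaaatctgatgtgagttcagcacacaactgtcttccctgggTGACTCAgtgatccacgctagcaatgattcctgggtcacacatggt
Atf3 chr1:191190006-191190105: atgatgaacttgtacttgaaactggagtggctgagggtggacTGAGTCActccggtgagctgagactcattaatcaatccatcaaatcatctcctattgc
Hspa5 chr2:34770264-34770363: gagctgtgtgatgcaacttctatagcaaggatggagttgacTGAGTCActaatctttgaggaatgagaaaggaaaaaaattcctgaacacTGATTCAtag
Socs3 chr11:117941657-117941756: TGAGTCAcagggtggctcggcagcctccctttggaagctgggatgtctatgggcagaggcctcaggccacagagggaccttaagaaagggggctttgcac
Nrxn3 chr12:88971278-88971377: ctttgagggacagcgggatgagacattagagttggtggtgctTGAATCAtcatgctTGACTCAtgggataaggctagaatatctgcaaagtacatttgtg
Dlg2 chr7:91323899-91323998: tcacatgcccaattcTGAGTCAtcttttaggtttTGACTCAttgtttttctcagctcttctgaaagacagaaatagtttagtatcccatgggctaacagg

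One fed ATAC library stood apart by depth. Counts in peaks summed to 8263234 in fed replicate 1 against 14324992 in fed replicate 2, 15745558 and 15710305 in the fasted libraries and 14455862 and 17190963 in the leptin libraries. A member had a median of 13 and 31 counts in the fed libraries, 108 and 111 in the fasted and 107 and 120 in the leptin libraries, so the fed levels were the least precise. The value in fed replicate 1 was below that in fed replicate 2 in 7970 members (71.6%), and 112 members (1.01%) sat at the lowest value that fed replicate 1 has in the table, -1.91 log2 CPM. Without fed replicate 1 the rule took 10815 peaks, of which 8943 were among the 11127, and 71.6% of the 10815 held TGANTCA. RNA libraries that stood apart are given with the RNA below.

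The members held a small share of the counts in fed mice and a several-fold greater share in both fasted states. They took 2.69% and 3.78% of all counts in the fed libraries, 10.8% and 10.6% in the fasted and 11.4% and 10.6% in the leptin libraries. Their median level was 0.83 and 1.22 log2 CPM in the fed libraries, 2.81 in each of the fasted libraries, and 2.92 and 2.79 in the leptin libraries. Over all 74904 peaks the library medians lay between 2.41 and 2.69, so that in fed mice the members were below the typical peak and in the fasted and leptin-treated mice slightly above it. The counts moved the other way in peaks near a start site, which took 51.2% and 54.5% of counts in fed, 46.5% and 47.9% in fasted and 45.7% and 46.6% in leptin libraries. CPM is a share of the counts of its own library, so these shares are not independent of each other. In bulk samples such as these, fewer cells of a type and less signal per cell cannot be told apart.

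**Figure D1:**
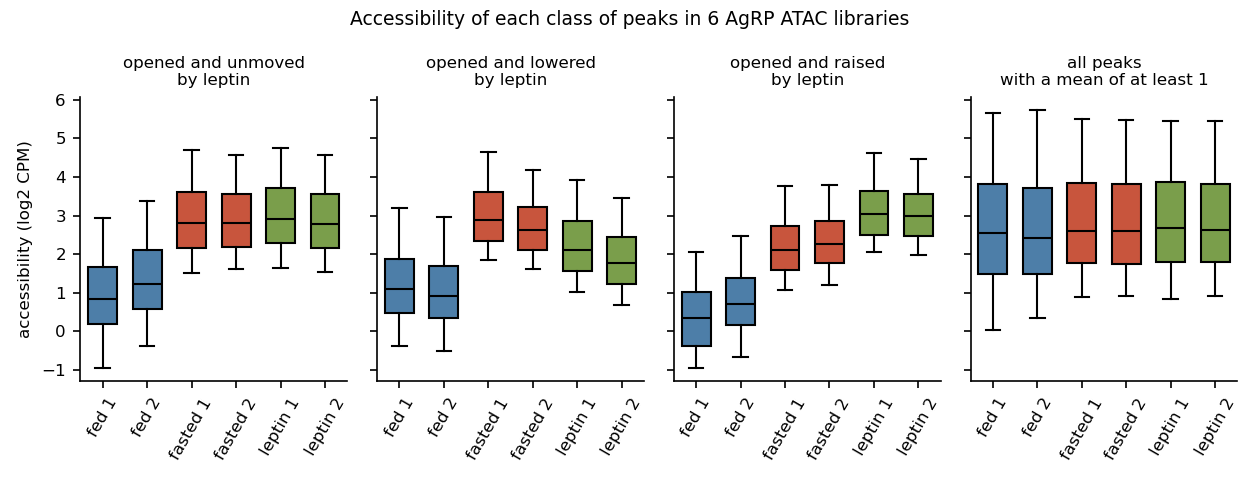
Level of the selected regions in each ATAC library (log2 CPM, vertical axis), with boxes at the quartiles, a line at the median and whiskers from the 5th to the 95th percentile, beside all peaks with a mean of at least 1 log2 CPM. The selected regions had medians of 0.83 and 1.22 in the fed libraries and between 2.79 and 2.92 in the fasted and leptin libraries, while the medians of all peaks stayed between 2.41 and 2.69.

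The opening was mostly modest in size. The median difference between fasted and fed means was 1.64 on the log2 scale, with a 5th percentile of 1.06 and a 95th percentile of 2.93. It lay between 1 and 2 in 7680 members (69.0%), between 2 and 3 in 2980 (26.8%) and at 3 or more in 467 (4.20%). The median leptin and fasted difference was 0.055. The leptin libraries overlapped the fasted libraries in 7562 members (68.0%), both leptin libraries were above both fasted libraries in 2366 (21.3%) and both were below in 1199 (10.8%). Both leptin libraries lay above both fed libraries in 11024 members (99.1%). The libraries of a state differed from each other by a median of 0.60 in fed, 0.26 in fasted and 0.26 in leptin mice. In an edgeR fit on the deposited counts, 10080 members (90.6%) were called higher in fasted than in fed mice, where 18.1% of all 102237 counted peaks were called, and none was called in leptin against fasted mice, where 2.41% of all peaks were called higher and 0.669% lower. The rule used these same contrasts, so the counts say nothing further about the members.

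The edges of the rule cut through a continuum. Members just inside the minimum mean had 1.00 log2 CPM (near Kdm5b, Ifi203 and Neurl1a) and peaks just outside had 0.998 (near Crygf, Osbpl6 and Tnik). At the opening threshold, members near Rdh10, Rgs2 and Atf6 had a fasted and fed difference of 1.00, and peaks near Epha4 and D830032E09Rik, with another near Rgs2, had 0.995. At the leptin limit the values were 0.495 inside (near St18, Trpa1 and Il1r1) and 0.50 outside (near Khdrbs2, Iqca and Lgr6). The peak near Plekha5 at chr6:140548185-140548859 was inside with 1.54 and 3.05 in fed and 3.06 and 3.71 in fasted libraries, and the peak near Ispd at chr12:36356662-36357217 was outside with 0.03 and 2.20 in fed and 2.31 and 2.20 in fasted libraries.

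The greatest opening was at chr17:67592040-67592488, an intronic region of 449 bases whose nearest start was that of Lrrc30, 40460 bases away. It had 1 and 4 counts in the fed libraries, 212 and 220 in the fasted and 190 and 169 in the leptin libraries. On the log2 CPM scale these were -1.91 and -1.24 in fed, 3.77 and 3.78 in fasted, and 3.73 and 3.28 in leptin libraries, a fasted and fed difference of 5.35 that rests on a near absence of counts in fed mice. It held no TGANTCA in its central 300 bases. The region 5839 bases upstream of Tmprss11f, which codes for a transmembrane serine protease, had -1.91 and 0.50 in fed, 3.87 and 3.51 in fasted, and 3.78 and 3.85 in leptin libraries, and it held 2 copies of the motif, both shown above. The intergenic region 29023 bases upstream of BC055402 had 0.35 and 0.26 in fed, 4.50 and 4.65 in fasted, and 4.67 and 4.58 in leptin libraries. In each of these regions the fed libraries lay well below the others and the fasted and leptin libraries lay close together, as the choice of members requires.

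Members with the highest mean level were open in fed mice too. The most open, at chr5:91302886-91303586 between genes and 19814 bases upstream of Gm19619, had 4.69 and 5.49 log2 CPM in fed, 6.23 and 6.08 in fasted, and 6.27 and 6.17 in leptin libraries. The region 3367 bases upstream of Srxn1, the gene of sulfiredoxin, which restores oxidised peroxiredoxins, had 4.51 and 4.78 in fed, 6.46 and 6.10 in fasted, and 6.21 and 6.02 in leptin libraries. A region centred 1222 bases downstream of a start of Cdkn1a, the cell cycle inhibitor p21, had 4.26 and 5.21 in fed, 6.01 and 5.91 in fasted, and 6.02 and 5.62 in leptin libraries. In these regions the fed libraries already held a high level, whereas the 8 regions with the greatest opening had 1 to 25 counts in a fed library.

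The label of the nuclei was checked on promoters. All 7 AgRP neuron markers (Agrp, Npy, Corin, Otp, Ghsr, Acvr1c and Lepr) had a promoter peak, with a summed level of 344 and 284 CPM in fed, 352 and 291 in fasted and 320 and 265 in leptin libraries, Agrp being the most open, and none of these promoter peaks was a member. Among markers of other cells, 2 of 4 POMC neuron markers had a promoter peak (summed 4.94 to 8.87 CPM), as did 4 of 6 astrocyte markers (7.70 to 12.5), 1 of 7 oligodendrocyte markers and 5 of 6 tanycyte and ependymal markers (76.3 to 87.9), and no glutamatergic or microglial marker had one. In 4 lists the summed fed and fasted levels did not overlap. Tanycyte and ependymal promoters had 79.4 and 87.9 CPM in fed, 79.2 and 76.3 in fasted and 87.0 and 81.0 in leptin libraries. The 6 pan-neuronal and GABA promoter peaks summed to 227 and 209 CPM in fed, 189 and 184 in fasted and 184 and 169 in leptin libraries. The oligodendrocyte peak had 44.3 and 44.0 CPM in fed, 37.8 and 32.9 in fasted and 32.7 and 36.5 in leptin libraries. Of the endothelial list, 2 of 5 genes had a promoter peak, with a summed level of 5.82 and 8.97 CPM in fed, 16.6 and 17.1 in fasted and 20.8 and 17.7 in leptin libraries. The Pecam1 promoter peak was itself a member, at 1.27 and 2.48 log2 CPM in fed, 3.58 and 3.61 in fasted, and 4.16 and 3.88 in leptin libraries. The promoter of Cldn5, a defining endothelial tight junction gene, had 1.77 and 1.76 in fed, 2.22 and 2.30 in fasted, and 1.54 and 1.57 in leptin libraries, Tek, Cdh5 and Flt1 had no promoter peak, and the RNA of the 5 genes had a median fasting log2 fold change of -0.16 with none called. The part of other cells in the openings was not tested.

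The members lay mostly away from start sites. The centre of 411 members (3.69%) was within 1000 bases of an annotated start, against 21.6% of all 74904 peaks, while 6387 members (57.4%) were intronic against 45.2%, 3949 (35.5%) were intergenic against 29.6%, and 380 (3.42%) were exonic against 3.70%. Leptin-lowered and leptin-raised regions had promoter shares of 2.55% and 4.41%. The median distance to the nearest start was 35599 bases in members, 40633 in leptin-lowered and 37411.5 in leptin-raised regions, and 24898.5 over all peaks. Members lay on chromosomes 1 to 19 and X, from 12.2% of the peaks on chromosome X (226 of 1847) to 16.9% of those on chromosome 16 (414 of 2445). They were narrower than peaks in general (median 475 against 571 bases) and held less G and C (45.3% against 48.7%). As the nearest start, 6286 genes were assigned at least 1 member, although the nearest gene need not be the one a region acts on.

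Among the 22 letter patterns searched, TGANTCA had the largest ratio of its share in members to that in all peaks. It was present in the central 300 bases of 75% of members (95% Wilson interval 74.2 to 75.8), in 74.1% of leptin-raised regions (72.3 to 75.9), in 49.6% of leptin-lowered regions (46.9 to 52.3) and in 30.3% of all peaks. The intervals cover counting error only, since neighbouring regions and those near the same gene are not independent. Promoter-class members held it in 72.0%, against 8.33% of all promoter-class peaks, exonic members in 73.4% against 27.0%, intronic members in 74.3% against 37.6%, and intergenic members in 76.6% against 35.5%, so the share among members was nearly level across positions while that of other peaks was not. A member held 1 copy in 5721 cases (51.4%), 2 in 2243 (20.2%), and 3 or more in 379 (3.41%), as in the Nrxn3 and Dlg2 sequences above that show 2 side by side. The form with C or G in the middle was in 6971 members (62.6%) and that with A or T in 2437 (21.9%). Of 11415 copies in members, 26.2% lay within 25 bases and 49.0% within 50 bases of the centre, against 22.7% and 43.4% of 16708 copies in other peaks.

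The share of peaks with TGANTCA also followed the size of the fasting change over all peaks, members or not. It was 4.33% where the fasted mean was below the fed mean by more than 2, 5.65% from -2 to -1, 7.90% from -1 to -0.5 and 9.59% from -0.5 to 0. It was 32.5% from 0 to 0.5, 58.5% from 0.5 to 1, 69.4% from 1 to 1.5, 74.0% from 1.5 to 2, 75.4% from 2 to 3 and 71.7% at 3 or more. The promoter class, poor in the motif, made up 44.8% of peaks from -0.5 to 0, 20.9% from 0 to 0.5, 6.23% from 0.5 to 1 and 4.15% or less above 1. Most of the climb thus lay below the opening threshold of the rule, and above it the share was nearly flat. Among members, those with and without the motif had median openings of 1.66 and 1.60 and median widths of 462 and 518 bases.

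**Figure D2:**
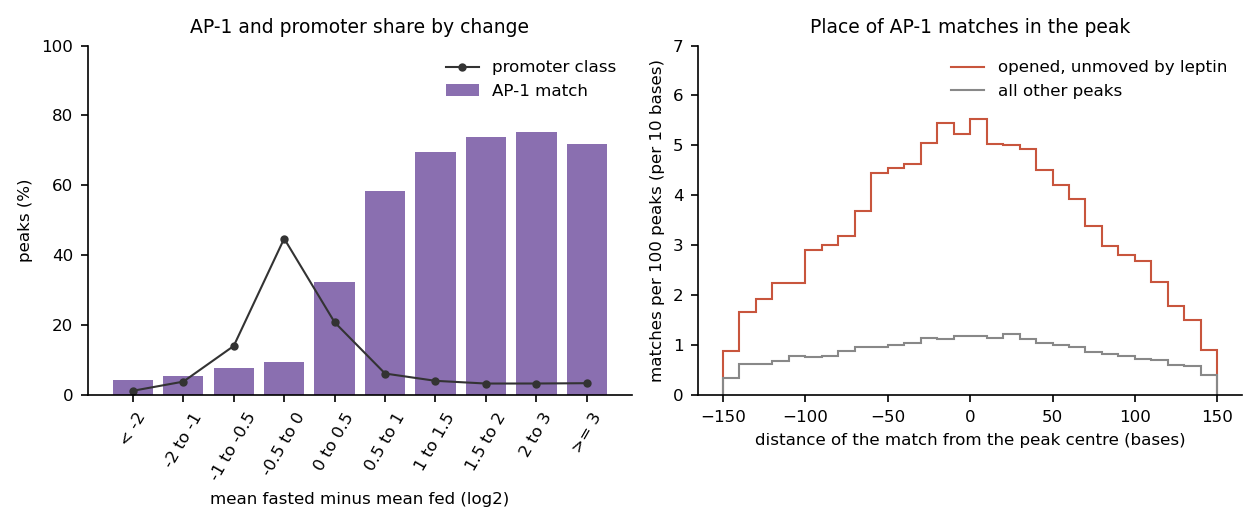
Percent of peaks with the AP-1 letters TGANTCA in their central 300 bases by the fasted minus fed log2 difference of all peaks (bars), with the percent in the promoter class (line), and copies of the letters per 100 peaks by distance from the peak centre in bases, for the selected regions and for all other peaks. The AP-1 share climbed from 4.33% in the peaks that closed most to 75.4% between 2 and 3, and copies in the selected regions gathered toward the centre, with 49.0% within 50 bases.

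Other motifs were searched as letters on both strands of the central 300 bases, 22 patterns in all. The steroid receptor pattern ACANNNTGT, bound by the glucocorticoid receptor among others, was in 18% of members, 34.5% of leptin-lowered and 12.8% of leptin-raised regions and 12.6% of all peaks, and within the members its share climbed with the opening, from 15.4% in those that opened least to 25.1% in those that opened by 3 or more. Members without TGANTCA held it in 23.2% and those with TGANTCA in 16.2%. The STAT pattern TTCNNNGAA, to which STAT3 binds, was in 10.2% of members, 10.2% of leptin-lowered and 20.7% of leptin-raised regions, and 12.0% of all peaks. MEF2 sites, searched by their consensus, were in 5.04% of members, 14.1% of leptin-lowered and 3.97% of leptin-raised regions, and 4.40% of all peaks. The members were thus near the leptin-raised regions in TGANTCA and MEF2, near the leptin-lowered regions in the STAT pattern and between the sets in the steroid receptor pattern.

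Patterns of promoters and of CTCF were rare in the members. The SP and KLF pattern GGGCGG was in 4.13% against 18% of all peaks, the ETS pattern CCGGAAG in 1.2% against 4.14%, the NRF1 pattern GCGCATGCG in 0.0449% against 0.574%, the EGR pattern GCGTGGGCG in 0.0449% against 0.363%, and the CTCF consensus in 0.171% against 2.90%. The cyclic AMP response element TGACGTCA, which holds no TGANTCA, was in 0.539% against 0.899%. The E-box CAGCTG (17.9% against 19.8%), the NFI core TTGGCA (14.4% against 14%), the interferon response pattern GAAANNGAA (9.36% against 9.36%) and the heat shock pattern GAANNTTC (7.46% against 6.72%) were about as frequent as in all peaks, and the MAF core TGCTGAC, which can overlap an AP-1 match, was in 8.13% against 6.48%. The remaining patterns ranged from 0.350% of members for ATTGCATCA (ATF4 and CEBP, 0.252% of all peaks) to 6.77% for the homeobox core TAATTA (5.53%). A match of letters is not a bound site, and the promoter patterns differ between the sets along with the share of start sites in them.

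**Figure D3:**
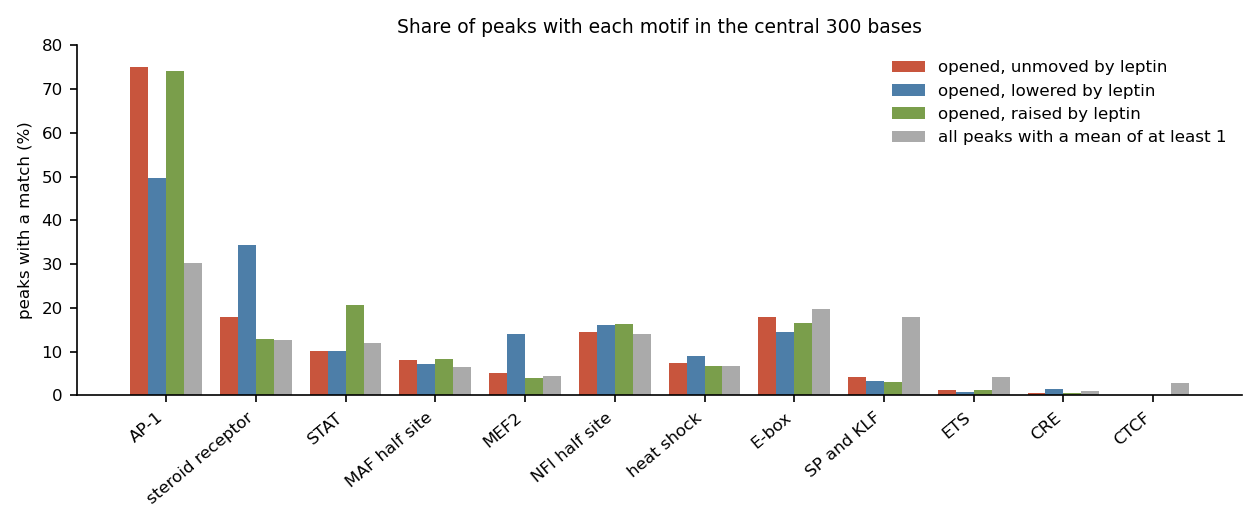
Percent of regions whose central 300 bases hold each of 12 of the patterns, for the selected regions, the leptin-lowered and leptin-raised regions and all peaks. TGANTCA stood at 75%, 49.6%, 74.1% and 30.3% in that order, the steroid receptor pattern was highest in leptin-lowered (34.5%) and the STAT pattern in leptin-raised regions (20.7%).

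Few members overlapped CTCF, which holds chromatin loops and insulates domains. A CTCF peak of fed AgRP nuclei (1 library, labelled 3K nuclei) overlapped 590 members (5.30%), against 4.72% of leptin-lowered and 2.32% of leptin-raised regions and 25.5% of all peaks. Cerebellar CTCF peaks overlapped 2.93% of members with 10K nuclei and 2.85% with 50K, against 24.9% and 25.5% of all peaks, so the low overlap was seen with peak lists of another tissue as well. The overlap was smaller the larger the opening, from 9.27% in the members that opened least to 0.857% in those that opened by 3 or more. The 590 members over an AgRP CTCF peak were more open on average (median mean level 3.40 against 2.15 log2 CPM) and opened by less (1.36 against 1.67), and 69.8% of them held TGANTCA. The list taken as IRF3 peaks of the IRF3-2D mice overlapped 191 members (1.72%) and 12.4% of all peaks. That list was assigned to IRF3 as the only one of its format, and its name does not state the factor. These lists have no replicate libraries, and no difference between them was tested.

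Sorted nuclei of fed mice gave a readout that the rule did not use. Of the members, 3657 (32.9%) overlapped a peak of the sorted data, against 67.9% of all peaks, and the 7470 that did not had lower fed levels (medians 0.49 and 0.82 log2 CPM), so the matched members are the part already visible in fed mice. Median levels of the matched members were 1.85 and 1.78 CPM in AgRP-negative and 4.97 and 4.16 CPM in AgRP-positive nuclei. By edgeR, with calls made at a false discovery rate (FDR) below 0.05 and a log2 fold change beyond 0.5 in either direction, 2187 matched members (59.8%) were higher in AgRP-positive nuclei and 68 (1.86%) were lower, where 23.9% and 15.6% of all sorted peaks were called. The matched leptin-lowered and leptin-raised regions were higher in 52.0% and 54.7%, and all matched peaks in 29.8%. The median log2 fold change was 1.33 in members and 0.16 over all matched peaks. A weakly open region enters the sorted peak list only where one of the populations opens it, so these counts do not stand for all members, and the same holds for the sets beside them. With DESeq2, 1565 matched members were higher (42.8% against 17.4% of all sorted peaks) and 36 were lower (0.984% against 10.6%). Leaving out any 1 sorted library reduced the members called in both directions, and the share of all sorted peaks called fell too. Such a fit leaves 1 library in an arm, assumed to vary like the others. Its counts are therefore given only with the dependence on the processing, and nothing is concluded from them.

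The matched members ranged from 6 with a log2 fold change between -2.5 and -2 to 2 between 4.5 and 5. The Ubl3 region at chr5:148522882-148523925 had 4.31 and 5.33 CPM in AgRP-negative and 40.6 and 34.9 in AgRP-positive nuclei (log2 fold change 2.96, FDR 7.31e-38), with no overlap between the groups. A region 6715 bases upstream of Atf3 had 1.97 and 1.66 against 11.5 and 13.0 CPM (2.75, FDR 4.55e-13). The Cdkn1a region had 4.55 and 7.81 against 5.15 and 8.16 CPM (0.11, FDR 0.798), and there the groups overlapped. The region 686 bases upstream of Sphk1 had 6.65 and 4.97 against 3.64 and 4.16 CPM (-0.57, FDR 0.184), lower in both AgRP-positive libraries but not called. In the study's states the Atf3 region had 2.54 and 3.17 log2 CPM in fed, 5.01 and 4.65 in fasted, and 5.11 and 4.71 in leptin libraries.

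**Figure D4:**
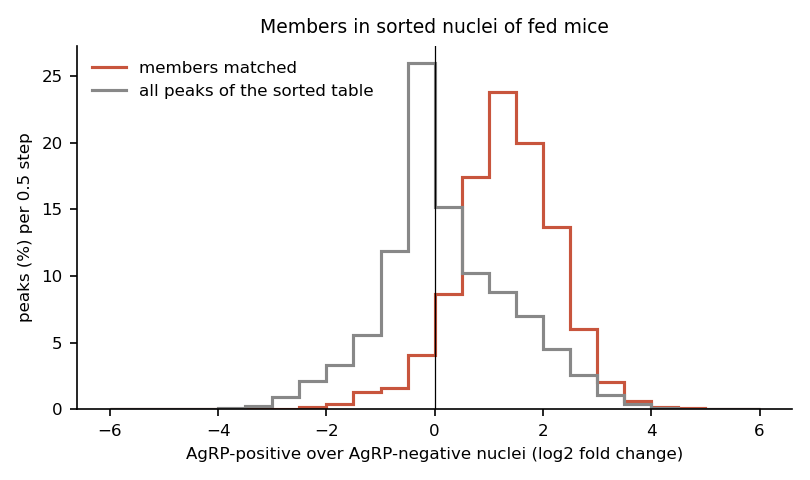
Distribution of the log2 fold change of AgRP-positive over AgRP-negative nuclei from fed mice, as percent of peaks in steps of 0.5, for the matched selected regions and for all peaks of the sorted table. The matched selected regions were most frequent between 1 and 1.5 (median 1.33), and all sorted peaks between -0.5 and 0.

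The AgRP RNA libraries need a caution before the genes. Replicate 4 stood apart in every state. The summed astrocyte markers were 630, 515 and 870 CPM in fed replicates 1, 3 and 4, 414, 435, 418 and 951 in fasted replicates 1 to 4, and 541, 409, 481 and 947 in leptin replicates 1 to 4, with Slc1a3 the most abundant. Oligodendrocyte markers were 685, 500 and 801 in fed, 454, 523, 431 and 760 in fasted, and 612, 441, 515 and 840 in leptin libraries. Within replicates 1, 3 and 4 the oligodendrocyte sum was lower in fasted than in fed mice each time. The same held for microglial markers, at 36.3, 21.6 and 39.5 CPM in fed and 15.2, 15.6 and 38.4 in fasted replicates 1, 3 and 4. Astrocyte sums were lower in fasted replicates 1 and 3 and higher in replicate 4. Median fasting log2 fold changes were -0.43 for oligodendrocyte, -0.66 for microglial and -0.24 for astrocyte markers. Replicates of the same number deviated together in all 10 pairs, so the replicate number entered as a block in an alternative fit. Calls, counts of list genes and fits with a library left out are without this block unless it is named. Values are also given without replicate 4 of every state, an alternative chosen after seeing the data. No gene of any of the marker lists of other cell types passed the test for fasting, and the part of these cells in the results below was not tested.

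Genes nearest to the members held a higher share of fasting calls than genes in general, mostly upward, and the great majority of them were not called. Of the 4401 nearest genes tested, 199 (4.52%) were higher in fasted than in fed mice and 55 (1.25%) were lower, where 2.82% and 1.07% of all 13401 genes were called. The median log2 fold change of the nearest genes was 0.02, as it was over all genes. With the replicate block 297 nearest genes were higher (6.75%, against 4.40% of all genes) and 120 lower (2.73% against 2.54%). Without replicate 4 of every state 211 were higher (4.79% against 3.01%, 175 of them among the 199) and 119 lower (2.70% against 2.27%), so the lower share rose over all genes too. With library size alone in place of TMM the higher count was 96 (2.18% against 1.10% of all genes) and the lower count 35 (0.795% against 0.672%), where 148 of all genes were higher and 90 lower in place of 378 and 143. Among all 11031 tested genes with a start within 200 kb of a member, 341 (3.09%) were higher and 127 (1.15%) lower, close to the shares of all genes. The higher count was 118 without fasted replicate 3 (2.68% against 1.51% of all genes) and also 118 without fed replicate 4 (2.68% against 1.51%). The lower count was 31 without fasted replicate 3 (0.705% against 0.544%) and 33 without fed replicate 1 (0.751% against 0.508%). It was 34 without fed replicate 3 (0.772% against 0.582%) and 93 without fasted replicate 4 (2.11% against 1.76%). Seen from the RNA, 199 of the 378 genes called higher (52.6%) and 55 of the 143 called lower (38.5%) had a member nearest to them, against 32.8% of all genes tested.

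The share of genes called higher varied with how the members lay. It was 27 of 266 (10.2%) where a member lay in the promoter class, 122 of 2220 (5.50%) for a nearest start within 20 kb, 111 of 1878 (5.91%) with at least 2 members, 53 of 854 (6.21%) with at least 3 and 13 of 232 (5.60%) with at least 5. Of all genes tested 2.82% were called higher, and of genes nearest to any tested peak 2.93%. Calls lower were 5 (1.88%), 27 (1.22%), 21 (1.12%), 7 (0.820%) and 1 (0.431%) in the same order, against 1.07% of all genes. Genes nearest to leptin-lowered regions were higher in 60 of 830 cases (7.23%) and those nearest to leptin-raised regions in 46 of 1332 (3.45%). In these sets 9 (1.08%) and 17 (1.28%) were lower. Genes can be nearest to regions of more than 1 set, and these shares were not tested against each other.

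After leptin, few of the nearest genes were called in either direction. In leptin against fasted mice, 67 nearest genes (1.52%) were higher and 50 (1.14%) lower, where 1.19% and 0.634% of all genes were called, and with the replicate block 84 were lower (1.91% against 1.10% of all genes). Without replicate 4 of every state 108 were higher (2.45% against 1.75%) and 57 lower (1.29% against 0.723%). With library size alone 38 were higher (0.863% against 0.798%), near the background, and 24 lower (0.545% against 0.291%). The lower count was 32 without fasted replicate 1, fasted replicate 3 or leptin replicate 1 (0.728%, 0.727% and 0.727%, each against 0.418% of all genes). In leptin against fed mice, 207 (4.70%) were higher and 69 (1.57%) lower, where 3.73% and 1.75% of all genes were called. There the block gave 125 lower genes (2.84% against 3.23% of all), and leaving out replicate 4 of every state gave 122 (2.77% against 2.72%). The higher count was 134 without fed replicate 1 (3.05% against 2.33%) and 122 without fed replicate 4 (2.77% against 2.00%). The lower count was 40 without fed replicate 1 (0.910% against 0.807%), 45 without fed replicate 3 (1.02% against 0.858%) and 44 without leptin replicate 3 (0.999% against 0.984%). The comparisons share their fasted and fed libraries. Of the 199 nearest genes called higher in fasting, 37 were called lower in leptin against fasted mice (of 55 such genes in all), 4 higher (of 4) and 158 were not called (of 319). Of the 55 called lower in fasting, 9 were called higher after leptin (of 17) and 45 were not called (of 125). In the fit with the replicate block, 66 of the 297 nearest genes higher in fasting were lower after leptin (of 100 such genes in all), 9 were higher (of 13) and 222 were not called (of 477). With library size alone 15 of the 96 were lower after leptin (of 22), 2 higher (of 2) and 79 not called (of 124).

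**Figure D5:**
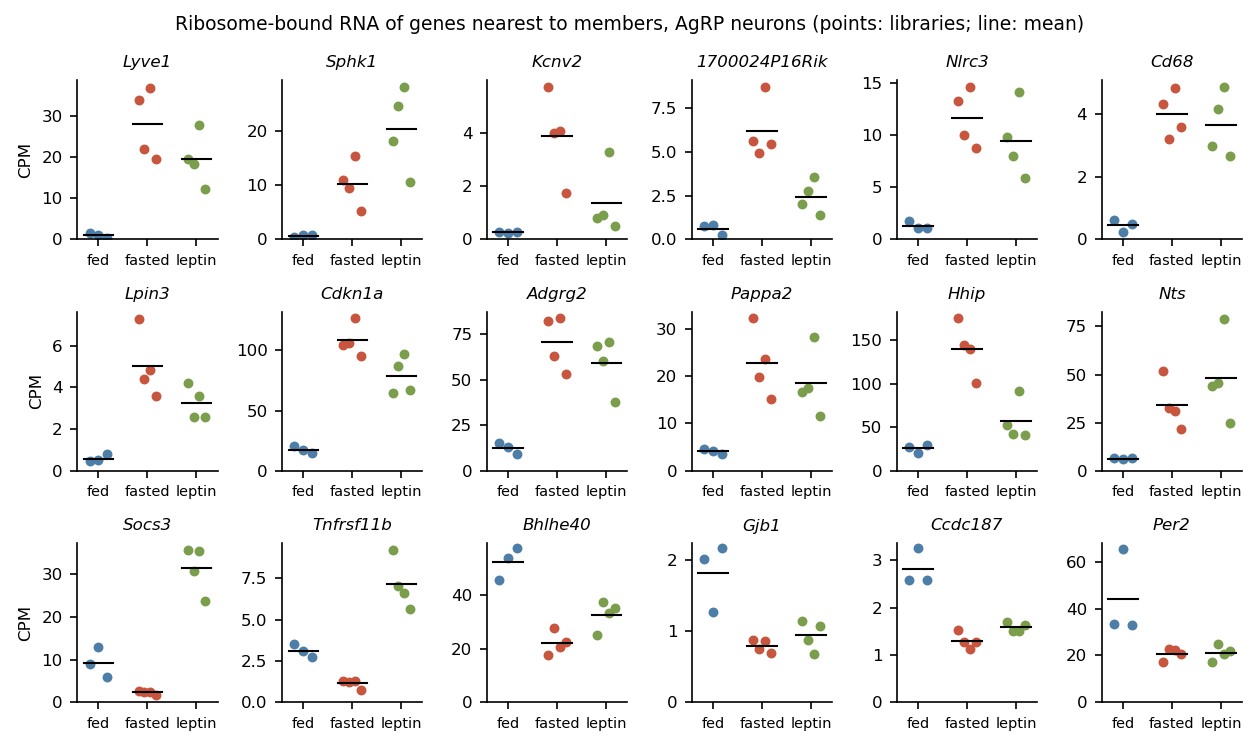
Ribosome-bound RNA (CPM, linear axis from 0) of the nearest genes with the largest increases (upper panels) and decreases (lower panels), with a point for each fed, fasted and leptin library of AgRP neurons and a line at the mean of the state. No fasted library overlapped a fed library in any of these genes, and the leptin libraries of Socs3 (23.8 to 35.7 CPM) and Tnfrsf11b (5.67 to 9.21 CPM) lay above all others.

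The genes with the greatest rise were of several kinds. Lyve1, a hyaluronan receptor best known from lymphatic vessels, had 1.45, 1.13 and 0.375 CPM in fed, 33.9, 21.9, 36.9 and 19.5 in fasted, and 19.4, 18.4, 27.7 and 12.3 in leptin libraries (fasting log2 fold change 4.78, SE 0.45, FDR 0.000664). Its member, 3107 bases upstream, had 1.11 and 2.20 log2 CPM in fed, 3.99 and 4.13 in fasted, and 4.27 and 4.08 in leptin libraries. Fasted and fed libraries were far apart in the RNA, and the leptin libraries overlapped the fasted ones (-0.53, FDR 0.862, with the block FDR 0.00777). Sphk1, a sphingosine kinase, had 0.485, 0.802 and 0.793 CPM in fed, 10.9, 9.50, 15.4 and 5.30 in fasted, and 18.2, 24.7, 28.1 and 10.6 in leptin libraries (3.90, FDR 0.00144), and leptin against fasted mice gave 0.99, FDR 0.27, with the block FDR 0.000292. Cdkn1a had 20.8, 17.7 and 14.5 CPM in fed, 104, 106, 127 and 95.7 in fasted, and 64.6, 87.3, 96.7 and 67.5 in leptin libraries (2.61, SE 0.18, FDR 0.000139). In both genes every fasted and leptin library exceeded every fed library, and the member of each with the highest mean level lay in the promoter class.

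Kcnv2, which codes for a silent subunit that modifies voltage-gated potassium channels, had 0.269, 0.225 and 0.292 CPM in fed, 5.70, 4.00, 4.07 and 1.75 in fasted, and 0.801, 0.899, 3.27 and 0.504 in leptin libraries (3.90, FDR 0.0109, lost in 2 of 11 fits with a library left out and 0.0574 without fed replicate 1). In leptin against fasted mice its FDR was 0.292, and 0.0153 with the block. Hhip, an extracellular inhibitor of hedgehog ligands, had 26.9, 20.3 and 30.2 CPM in fed, 175, 145, 140 and 101 in fasted, and 52.4, 42.5, 92.2 and 41.4 in leptin libraries. It rose in fasting (2.44, FDR 0.00169) and fell after leptin (-1.30, FDR 0.0272, lost in 6 of 11 such fits and 0.103 without leptin replicate 1), while its intronic member had 1.88 and 1.46 log2 CPM in fed, 4.35 and 4.27 in fasted, and 4.32 and 4.33 in leptin libraries. That the member differed little between fasted and leptin libraries follows from how members were chosen. Cd68, a lysosomal glycoprotein abundant in macrophages and microglia, had 0.620, 0.251 and 0.501 CPM in fed, 4.31, 3.18, 4.83 and 3.58 in fasted, and 2.96, 4.14, 4.84 and 2.65 in leptin libraries (3.13, FDR 0.00100), and the member over its start had 1.88 and 1.93 log2 CPM in fed, 3.09 and 3.56 in fasted, and 3.69 and 3.04 in leptin libraries. The summed microglial markers, with Cx3cr1 the most abundant, were 36.3, 21.6 and 39.5 CPM in fed, 15.2, 15.2, 15.6 and 38.4 in fasted, and 20.03, 16.9, 19.4 and 37.1 in leptin libraries. The part of microglia in the Cd68 values was not tested.

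The other large rises were those of 1700024P16Rik (3.30), Nlrc3 (3.16), an NLR family regulator, Lpin3 (3.12), a phosphatidate phosphatase, Adgrg2 (2.47), an adhesion G protein-coupled receptor, Pappa2 (2.46), a protease of insulin-like growth factor binding proteins, and Nts (2.42), the gene of the neuropeptide neurotensin. Their FDR values lay between 0.00100 for Adgrg2 and 0.00462 for Nts. In leptin against fasted mice 1700024P16Rik had -1.33, FDR 0.0649, with the block FDR 0.000278, and Lpin3 had -0.64, FDR 0.37, with the block FDR 0.018. The member over the start of Nts had 0.03 and -0.66 log2 CPM in fed, 1.98 and 1.28 in fasted, and 1.82 and 1.99 in leptin libraries, so it opened from a barely detected level.

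The 6 nearest genes with the largest called decreases in fasting are given next. Socs3, the feedback inhibitor of leptin receptor signalling, had 9.05, 13.0 and 5.88 CPM in fed, 2.71, 2.54, 2.39 and 1.79 in fasted, and 35.7, 30.7, 35.5 and 23.8 in leptin libraries. It fell in fasting (-1.98, FDR 0.00169) and rose after leptin (3.73, FDR 3.62e-05), and its member, 27480 bases downstream, had 0.93 and 2.01 log2 CPM in fed, 2.61 and 2.97 in fasted, and 2.92 and 2.57 in leptin libraries. Tnfrsf11b, the decoy receptor osteoprotegerin, followed the same order in RNA (-1.43, FDR 0.00414, then 2.62 after leptin, FDR 0.000113). Bhlhe40, a transcriptional repressor of the clock (-1.24), Gjb1, the gap junction protein connexin 32 (-1.17), Ccdc187 (-1.11) and the clock gene Per2 (-1.08, FDR 0.0199) were also lower. The call of Gjb1 was lost without fed replicate 1 (FDR 0.0813), among 2 such losses, and that of Per2 without fasted replicate 1 (FDR 0.0625), also among 2.

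Agrp and Npy, the neuropeptides that define the cells, each had members nearby. Npy was the nearest gene of 11 members, of which 9 held TGANTCA, 10 lay between 1409 and 184968 bases upstream and 1 lay 8908 bases downstream. The closest, chr6:49821013-49821590, had 2.60 and 2.90 log2 CPM in fed, 4.95 and 4.58 in fasted, and 5.03 and 4.80 in leptin libraries, and was higher in AgRP-positive nuclei (3.23, FDR 2.78e-12). The next, chr6:49820477-49820671, had -0.16 and 0.08 in fed, 2.70 and 2.68 in fasted, and 2.52 and 2.74 in leptin libraries. The region 166050 bases upstream at chr6:49656304-49657018, part of which is shown above, had 3.10 and 4.30 in fed, 5.47 and 5.14 in fasted, and 5.01 and 4.92 in leptin libraries. In all of these the fed libraries were lowest and did not overlap the others, which for the fasted libraries the choice of members requires. The Npy promoter peak, not a member, had 5.12 and 5.16 in fed, 5.56 and 5.38 in fasted, and 5.48 and 4.99 in leptin libraries.

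Agrp had 1 member, chr8:105639923-105640066, in an intron 2601 bases upstream, with 0.20 and 0.98 log2 CPM in fed, 2.98 and 2.84 in fasted, and 2.97 and 2.37 in leptin libraries. The Agrp promoter peak had 6.89 and 6.66 in fed, 7.15 and 6.91 in fasted, and 7.06 and 6.81 in leptin libraries. Agrp RNA was 313, 514 and 341 CPM in fed, 725, 1494, 2001 and 1232 in fasted, and 492, 1365, 2164 and 1008 in leptin libraries, with every fasted library above every fed one (1.81, SE 0.47, FDR 0.0523, with the block 1.64, FDR 8.69e-05, and called by DESeq2 too). Npy RNA was 369, 803 and 660 CPM in fed, 868, 1922, 2992 and 2202 in fasted, and 539, 1881, 3148 and 1773 in leptin libraries (1.71, FDR 0.113, with the block 1.57, FDR 0.000115). Both thus passed the test with the replicate block and not in the fit without it. Over all genes tested, the background for this list and those below, 32.8% were nearest to a member. In fasting 2.82% of all genes were called higher and 1.07% lower, and in leptin against fasted mice 1.19% and 0.634%. Of the 30 feeding and AgRP neuron genes on the list, 10 were nearest to 27 members. None of these 10 was called in fasting without the block, with a median log2 fold change of 0.49, while 2 of the 29 tested on the whole list were lower. With the block, Ghsr, the ghrelin receptor, was also called (0.66, FDR 0.0511, with the block FDR 0.000417). After leptin Mc3r, a melanocortin receptor, was higher than in fasted mice (0.76) and Npy5r, a receptor for neuropeptide Y, was lower (-0.60, FDR 0.0306), calls that were lost in 5 and 8 of 11 fits with a library left out, with FDR values up to 0.0707 without leptin replicate 1 and 0.113 without fasted replicate 3.

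Of the 41 AP-1 and neuronal activity genes, 25 were nearest to 53 members, and 4 of these rose in fasting, none falling (median 0.24), against 8 higher and 1 lower of the 38 tested on the whole list. Fos, the AP-1 subunit used as a mark of neuronal activity, had 19.7, 12.1 and 20.8 CPM in fed, 36.1, 55.2, 44.5 and 42.1 in fasted, and 28.4, 31.5, 26.0 and 32.6 in leptin libraries (1.35, SE 0.20, FDR 0.00315), so that the leptin libraries lay between the fasted and the fed ones. Its member, 45830 bases downstream, had 0.73 and 1.96 log2 CPM in fed, 2.84 and 2.85 in fasted, and 3.47 and 2.89 in leptin libraries. Nfil3, a basic leucine zipper repressor, rose by 1.58, Btg2, an antiproliferative early gene, by 1.07 and Rgs4, which shortens G protein signals, by 0.75 (FDR 0.0398, lost in 8 of 11 fits with a library left out, up to 0.183 without fed replicate 4). After leptin, Atf3, a stress-induced partner of Jun with 5 members nearby, rose from 9.92, 8.89, 5.57 and 10.0 CPM in fasted to 54.5, 55.8, 42.1 and 26.2 in leptin libraries (2.38, FDR 0.000756), and Jun rose too (1.10, FDR 0.000441). Neither had passed the test in fasting (0.75, FDR 0.168, and -0.07, FDR 0.818). Nptx2, a synaptic pentraxin, was higher after leptin (1.33, FDR 0.0288, lost in 6 of 11 fits and 0.0975 without fasted replicate 1), and Btg2 (-0.68) and the orphan nuclear receptor gene Nr4a3 (-1.25, FDR 0.0256, lost in 6 and 0.0893 without leptin replicate 3) were lower.

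Genes of the secretory pathway made up another group. Of 35 genes of endoplasmic reticulum stress and secretion, 13 were nearest to 18 members and 6 of these rose in fasting, none falling (median 0.51), against 12 of 34 on the whole list. Hspa5, the chaperone BiP, had 486, 573 and 495 CPM in fed, 973, 1013, 1209 and 871 in fasted, and 939, 1008, 1187 and 831 in leptin libraries (0.97, SE 0.16, FDR 0.00541). Its member, 1657 bases upstream, had -0.63 and -0.51 log2 CPM in fed, 1.86 and 2.47 in fasted, and 2.85 and 2.24 in leptin libraries, where the closeness of fasted and leptin libraries was part of the choice of members. The others were Sec61b of the translocon (1.21), the protein disulfide isomerase Pdia6 (0.98), the transcription factors Creb3l2 (0.71) and Creb3l1 (0.51), and Sec24d of transport vesicles (0.58). The calls of Creb3l1, Creb3l2 and Sec24d were lost in 10, 4 and 4 of 11 fits with a library left out, with FDR values up to 0.149 without fed replicate 3, 0.0760 without fed replicate 1 and 0.136 without fed replicate 4. Of 14 granin and prohormone processing genes, 10 were nearest to 27 members and 3 rose (median 0.47, 3 of 13 on the whole list). These were Vgf, a granin-like secretory peptide precursor, at 366, 452 and 375 CPM in fed, 1557, 1934, 2344 and 1599 in fasted, and 1361, 1799, 2865 and 1670 in leptin libraries (2.22, FDR 0.00154), the prohormone convertase gene Pcsk1 (0.74, FDR 0.00512) and Nucb2, the precursor of nesfatin (0.80, FDR 0.0326, lost in 5 of 11 such fits and 0.156 without fed replicate 4). Scg2, with 6 members, differed by 1.29 (FDR 0.0519, and 6.4e-06 in the blocked fit).

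Of 16 glucocorticoid-responsive genes, 11 were nearest to 24 members and 5 rose in fasting, none falling (median 0.39), against 8 of 16 on the whole list. They were Cdkn1a, Mt2, a metallothionein (1.26, FDR 0.0375, lost in 7 of 11 fits with a library left out and 0.147 without fed replicate 4), Errfi1, an inhibitor of EGF receptor signalling (0.99, FDR 0.00107), Sgk1, a kinase induced by steroid hormones (0.93, FDR 0.00244), and Fkbp5, a co-chaperone of the glucocorticoid receptor (0.84, FDR 0.0324, lost in 6 and 0.128 without fed replicate 4). After leptin Nr3c2, the mineralocorticoid receptor gene, was higher (1.07, FDR 0.000411) and Errfi1 lower (-0.56, FDR 0.0114, under the fold limit in 1 of 11 fits). Of 14 leptin and STAT3 feedback genes, 5 were nearest to 12 members, Socs3 fell in fasting and 3 rose after leptin, against 4 lower in fasting and 10 higher after leptin of 14 on the whole list. Beside Socs3 these were Serpina3n, a serine protease inhibitor (1.08, FDR 0.0423, lost in 8 of 11 fits and 0.130 without fasted replicate 1), and Ptpn1, a phosphatase that acts on leptin receptor signalling (0.52, FDR 0.00723, under the fold limit in 2 of 11 fits).

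The 6 genes nearest to the most members were not called in fasting with all 11 libraries. Nrxn3, a presynaptic adhesion molecule, was nearest to 17 members, 14 of them with TGANTCA. Next were Cacna1e (a calcium channel subunit), Dlg2 (a postsynaptic scaffold) and Pde4d (a cyclic AMP phosphodiesterase) with 14 each, and Dlgap1 (a postsynaptic scaffold protein) and Kcnma1 (the large-conductance potassium channel) with 13 each. The most open member of Nrxn3 had 1.77 and 2.59 log2 CPM in fed, 5.24 and 4.64 in fasted, and 5.27 and 5.07 in leptin libraries, and was higher in AgRP-positive nuclei (2.05, FDR 5.12e-07). Nrxn3 RNA was 336, 323 and 440 CPM in fed, 335, 368, 330 and 491 in fasted, and 322, 349, 315 and 466 in leptin libraries (0.06), with full overlap of the states. Dlg2 RNA was 474, 422 and 949 CPM in fed, 324, 325, 288 and 1073 in fasted, and 416, 358, 333 and 981 in leptin libraries (-0.29), where replicate 4 of each state was highest, and without these the value was -0.53 (FDR 0.0259). Of 28 glutamate receptor and synaptic genes, 25 (89.3%) were nearest to 131 members, against 32.8% of all genes tested. None of the 28 was called in fasting (median -0.17). Of 34 potassium channel genes, 25 (73.5%) were nearest to 91 members and 2 of the 24 tested rose, Kcnv2 and Kcnc2, a fast delayed rectifier (0.53, FDR 0.0375, lost in 8 of 11 fits with a library left out and 0.187 without fed replicate 4), with a median of -0.05. The length of genes was not taken into account in any of these list counts.

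POMC neurons, which lie in the same nucleus and oppose AgRP neurons, gave RNA values for the same genes with 2 libraries a state. No nearest gene was called in fasted against fed mice by edgeR, where 0% of all 13412 genes were called, with 29 of 4396 higher and 51 lower at an unadjusted p under 0.05. DESeq2 called 0 higher and 3 lower (Cd44, Prok2 and Socs3), and the replicate block called 3 lower (Cd44, Nptx2 and Asb4), all named after their values were seen. With the block the 3 were 0.0682% of the nearest genes, and 3 of all genes (0.0224%) were lower. For DESeq2 no share over all genes is given. Vgf was 1063 and 635 CPM in fed and 391 and 425 in fasted POMC libraries (-1.06), and Hspa5 was 620 and 456 in fed and 431 and 359 in fasted libraries (-0.45). In both the fasted POMC libraries lay below the fed ones, opposite in sign to AgRP neurons, and the difference between the cell types was not tested.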

How the data were processed

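Nuclei and ribosome-bound RNA were profiled in the samples described above. Per the submitters' processing notes and the study's methods, reads were aligned to mm10 with Bowtie2 (ATAC-seq, CUT&RUN) or HISAT2 (RNA-seq), with MACS2, SEACR, featureCounts, bedtools and edgeR among the tools, versions not given in the sources used here. The authors deposited raw counts per merged ATAC peak (6 state libraries and 4 sorted libraries, the latter with 8685497 to 11177208 counts each) and raw counts per gene (25581041 to 54511107 per AgRP library and 30704075 to 53217053 per POMC library). They also deposited a log2 CPM table of 90196 ATAC peaks, scaled by the authors, to which the rule was applied. The deposited CTCF peak lists give a fold enrichment (ratio) and the deposited IRF3 list a total signal per peak, and only peak positions were used from both. ATAC counts in a peak depend on the merged peak set, and peaks weak in fed mice carry few counts.

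The members, gene lists, motifs and tests were chosen with earlier results of these data known. Counts were fitted with edgeR 4.0.16 (quasi-likelihood F test, TMM, mean CPM over 1, all 3 states in 1 model) in R 4.3.3 and called at a Benjamini-Hochberg FDR below 0.05 and a log2 fold change beyond 0.5 in either direction. FDR values beside genes and regions come from these fits over all genes or peaks, and CPM of RNA and of sorted nuclei were scaled by TMM. DESeq2 1.42.0 was an alternative, and the scripts were tested on simulated data. Fed RNA replicate 2 had no column and whole-arcuate RNA and IgG CUT&RUN were not analysed here, nor were the deposited log2 CPM tables of RNA. The 8 gene lists were named by function and the 9 marker lists by cell type. Named genes were the 12 nearest genes with the largest called increases and the 6 with the largest called decreases in fasting, the 6 genes with the most members, and genes of the lists. Regions named were the 8 with the largest change, the 8 with the highest mean, and for a gene its member with the highest mean. Position and starts came from GENCODE vM21 (22858 of 31854 gene symbols had a start), and a promoter-class peak has its centre within 1000 bases of any start. Sequence was found for 90168 of the 90196 peaks. Intervals on shares are Wilson intervals at 95%.

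Replicates with the same number deviated together from their state means in AgRP RNA, with a correlation of 0.536 to 0.814 over 10 pairs against -0.642 to 0.642 over 30 pairs of different numbers, and in POMC RNA (0.733 to 0.770), so these numbers pair the samples. Sorted positive and negative nuclei came from the same pools by the study's methods (correlation 0.0988). ATAC libraries of the same number had correlations of -0.00228 to 0.165. The value of the sorted nuclei, which share pools, lies within this range, so these correlations cannot decide whether the ATAC libraries were paired.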

Additional observations from a re-analysis of the deposited data

Results flagged for a closer look

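Within groups of 4 RNA libraries, 13 of 108 groups among the named genes held a library far from the other 3. The groups share the same libraries and are not independent of each other. Replicate 4 libraries of Cacna1e, Dlg2 and Kcnma1 were among them. Cacna1e was at 687 CPM in fasted replicate 4 (others 339 to 379) and 598 in leptin replicate 4 (others 364 to 369). Dlg2 was at 1073 in fasted replicate 4 (288 to 325) and 981 in leptin replicate 4 (333 to 416). Kcnma1 was at 372 in fasted replicate 4 (101 to 123) and 356 in leptin replicate 4 (107 to 117). Astrocyte and oligodendrocyte markers were highest in the same libraries, and their part in these values was not tested. Tnfrsf11b was at 0.730 CPM in fasted replicate 4 (1.25 to 1.31) and Npy5r at 5.48 in leptin replicate 4 (7.21 to 7.52).

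Kcnv2 was at 3.27 CPM in leptin replicate 3 (others 0.504 to 0.899). In fasted replicate 3, 1700024P16Rik was at 8.70 CPM (4.97 to 5.61), Fkbp5 at 235 (183 to 190) and Serpina3n at 693 (621 to 633). Nr3c2 was at 64.0 CPM in leptin replicate 1 (49.9 to 51.4).

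For 7 of 47 named genes every fasted library of AgRP neurons lay on one side of every fed library and in POMC neurons on the other side, and the difference between the cell types was not tested. The log2 fold changes of fasted over fed were -1.06 in POMC and 2.22 in AgRP neurons for Vgf, -1.01 and 0.51 for Creb3l1, -0.74 and 0.80 for Nptx2, -0.45 and 0.97 for Hspa5, -0.33 and 0.75 for Rgs4, -0.0771 and 0.58 for Sec24d, and -0.0550 and 0.14 for Ptpn1. None of these POMC values passed the edgeR test without the replicate block, and with it Nptx2 was called lower.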

How the results depend on the processing

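No AgRP RNA gene named turned its direction between the reported fit and an alternative where either of them called it. Changes of sign in values that neither fit called were not counted. The share of nearest genes called lower in leptin against fed mice, below that of all genes as reported (1.57% and 1.75%), was above it without replicate 4 of every state (2.77% and 2.72%) and without fed replicate 1 (0.910% and 0.807%), 3 (1.02% and 0.858%) or 4 (1.18% and 1.15%), or leptin replicate 3 (0.999% and 0.984%) or 4 (1.93% and 1.90%). A minimum mean of 2 log2 CPM left 6379 members, and leaving out 1 ATAC library gave 9595 to 13383. TGANTCA was in 82.6% of members over the whole peak and in 55.3% in the central 150 bases, against 40.4% and 20.2% of all peaks. Within 2000 bases of a start lay 7.77% of members, and with the peak centre inside the CUT&RUN peak the overlap was 2.68% for AgRP CTCF and 0.674% for IRF3. With library size alone in place of TMM, nearest genes called higher and lower were 96 and 35 in fasting (2.18% and 0.795%, against 1.10% and 0.672% of all genes) and 38 and 24 in leptin against fasted mice (0.863% and 0.545%, against 0.798% and 0.291%). Members within 20 kb of a start gave 122 and 27 in fasting and 31 and 25 in leptin against fasted mice, and all genes within 200 kb of a member gave 341 (3.09%) and 127 (1.15%) in fasting, close to the 2.82% and 1.07% of all genes. Leaving out 1 library gave 118 to 235 higher and 31 to 93 lower in fasting, 47 to 81 higher and 32 to 51 lower in leptin against fasted, and 122 to 251 higher and 40 to 85 lower in leptin against fed mice. Over all genes the same fits called 202 to 471 higher and 68 to 236 lower in fasting. They called 114 to 181 higher and 56 to 83 lower in leptin against fasted mice, and 268 to 613 higher and 108 to 259 lower in leptin against fed mice. Leaving out replicate 4 of every state, chosen after seeing the data, gave 119 lower in fasting, 108 higher in leptin against fasted and 122 lower in leptin against fed mice. In sorted nuclei, leaving out 1 library gave 1351 to 2140 members higher and 33 to 57 lower, DESeq2 gave 36 lower and an overlap of at least 50% of the member gave 41 lower. The replicate block gave 120 lower in fasting, 84 lower in leptin against fasted, 125 lower in leptin against fed and 3 lower in POMC fasting, and over all genes 590 in place of 378 higher and 340 in place of 143 lower in fasting, 242 in place of 160 higher and 148 in place of 85 lower in leptin against fasted, and 433 in place of 235 lower in leptin against fed mice. In POMC fasting the block called 3 of all genes lower, where 0 were called without it. Each fit without 1 sorted library leaves 1 library in an arm, and the share of all sorted peaks called fell in these fits too. Their counts are thus no test of the members. The 36 members lower by DESeq2 were 0.984% of those matched, where 10.6% of all sorted peaks were lower. The 41 with the stricter overlap were 1.70%, against 15.6% of all sorted peaks. The other counts of nearest genes and sorted members moved by less than 1.5 times with the block. The cause of these shifts in calls was not tested. Depth limits the fed ATAC values most, with a median of 13 and 31 counts per member.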
